A study of Mus musculus with 5 samples.

Results

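Integrins and laminins were followed through the conversion of mouse fibroblasts into neural progenitor cells. The members were the genes whose array name begins with Itga or Itgb, or with Lam and a chain letter and number; names containing bp, and Itgbl1, were left out. This rule found 38 genes, 27 integrins and 11 laminins, on 52 of the 55681 non-control probes and among 21982 named genes. Of the 38 genes, 31 had a probe that was well above background throughout at least 1 group and were tested. The other 7, Itgad, Itgae, Itgax, Itgb2l, Itgb6, Lamb3 and Lamc3, were too dim in every group. Entry only through the group where a member is bright favours a difference, so counts over the 31 do not describe all 38.

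RNA of 4 groups was measured on 5 single-colour arrays of 60-base probes. They were mouse embryonic fibroblasts (MEF, 1 array), induced neural progenitors made by chemical treatment (ciNPC) at passage 5 (p5, 1 array) and at passage 13 (p13, 2 arrays), and control neural progenitors taken from mouse brain (NPC, 1 array). By the title of the study, the inducing treatment was a chemical cocktail together with hypoxia; compounds, strain, age and sex are not given in the sources used here, nor whether separate cultures gave the 2 p13 arrays. The p-values therefore reflect no more than the scatter among these samples, possibly technical, and they assume that MEF and NPC, with a single array each, scatter as ciNPC does. MEF and NPC were hybridised on slide 1 and all 3 ciNPC arrays on slide 2, so slide and ciNPC cannot be told apart.

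The cell labels were checked against marker lists. Of 10 neural progenitor markers, 10 were well above background on each ciNPC array and on the NPC array, and 5 on the MEF array. Of 10 fibroblast markers, 10 were well above background on the MEF array and on each ciNPC array, and 5 on the NPC array. The summed fibroblast level, as a multiple of each array's 75th percentile, was 1640 in MEF, 165 to 227 in ciNPC and 1.07 in NPC. Spots well above background made up 47.9% to 57.6% of each array. The array of ciNPC p13 replicate 2 had the lowest spike-in slope, 0.803 against 0.915 to 0.987 elsewhere, and the highest floor for dim probes.

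Integrins are cell-surface receptors built from an alpha and a beta chain, and the pairing decides which matrix protein is bound. Laminins are secreted trimers of an alpha, a beta and a gamma chain that form the scaffold of basement membranes. In the developing brain, neural progenitors keep contact with laminin of the basement membrane, whereas cultured fibroblasts adhere mainly to fibronectin, vitronectin and collagen. Levels below are log2 values relative to the 75th percentile of the array, and differences are on the same log2 scale. A gene is called higher or lower where limma gave an adjusted p under 0.05 and the difference was at least 2-fold.

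Most changes from MEF to ciNPC were losses, and the gains were limited to 4 integrin genes. Itga4, Itga6, Itga10 and Itgb8 were higher in ciNPC than in MEF. Lower were 9 integrins (Itga1, Itga5, Itga9, Itga11, Itgam, Itgav, Itgb1, Itgb3 and Itgb5) and 6 laminin chains, among them Lama1, Lama2, Lama4, Lamb1 and Lamb2. Of the 31 members tested, 4 were thus higher, 15 lower and 12 neither; among all 16209 genes tested, 15.3% were higher and 15.3% lower. The median difference of the members was -1.51, against -0.09 over all genes. For every called member, all 3 ciNPC arrays lay at least 2-fold to the same side of the MEF array, on the probe used. Other probes of Itga1, Itga10, Itgam, Itgav and Itgb3 did not pass. In the same comparison, 8 of 10 fibroblast markers were lower and 9 of 10 neural progenitor markers higher. Their part in the integrin and laminin differences was not tested, and in bulk RNA fewer cells of a type and less RNA per cell cannot be told apart.

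**Figure D1:**
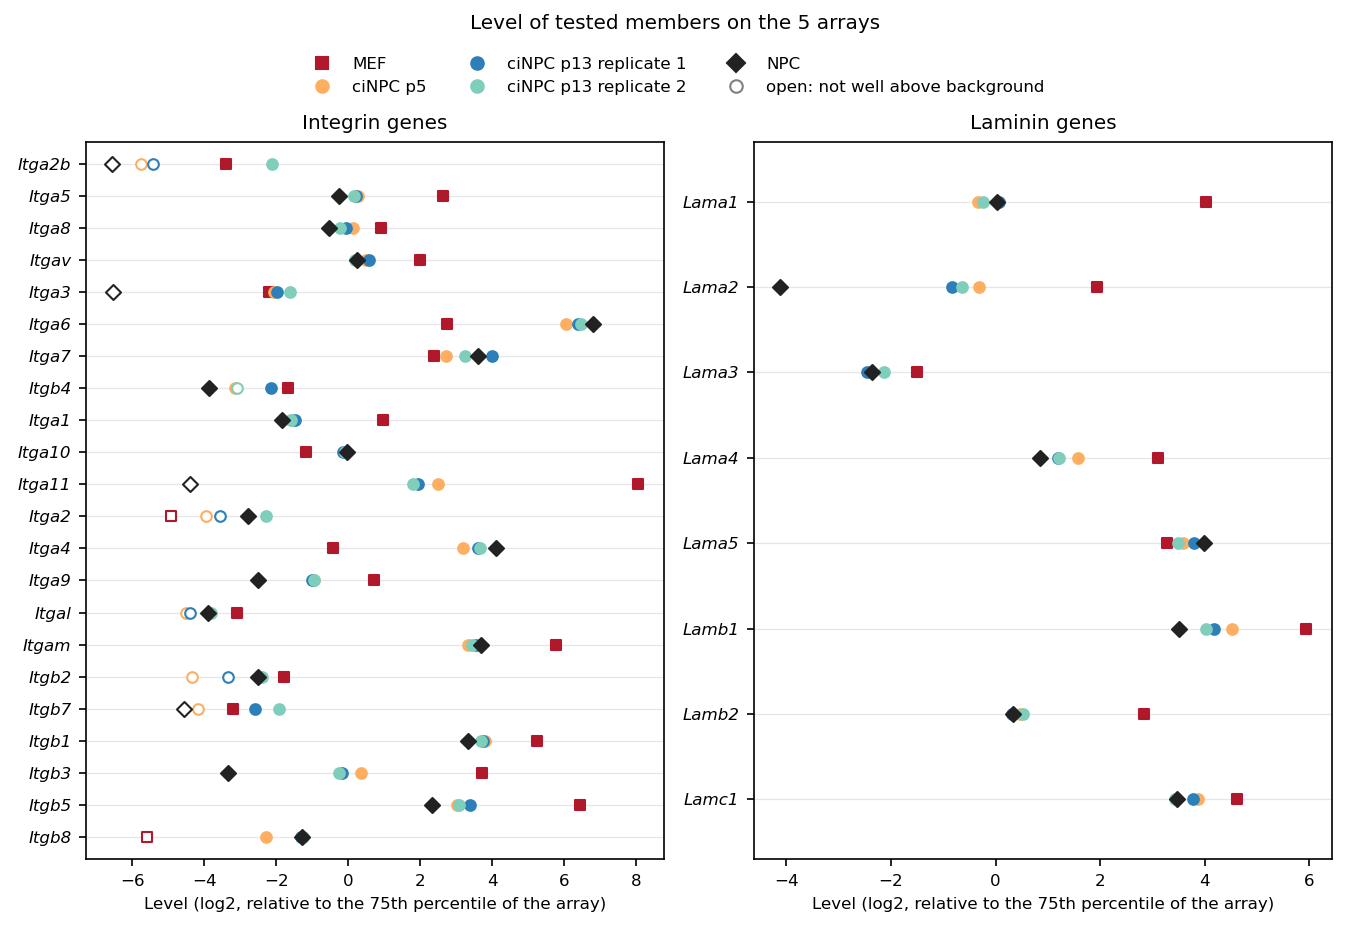
Level of 30 tested integrin and laminin genes on each of the 5 arrays, on a log2 scale relative to the 75th percentile of the array; each point is 1 array and open symbols are not well above background. Itga4, Itga6 and Itgb8 have the ciNPC and NPC points to the right of MEF, while Itga11 runs from 8.05 in MEF through 1.81 to 2.49 in ciNPC to a dim value in NPC.

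Itga6 encodes the alpha chain of the main laminin-binding integrins and is widely used as a surface marker of neural stem and progenitor cells. Its level was 2.76 in MEF, 6.04 in ciNPC p5, 6.38 and 6.47 in ciNPC p13 and 6.79 in NPC. Every ciNPC array stood far above MEF and slightly below NPC. The gene was 11.6-fold higher in ciNPC than in MEF (difference 3.54, SE 0.18, limma adjusted p = 3.18e-05), and its mean in ciNPC was 71% of that in NPC (difference -0.49, SE 0.18, adjusted p = 0.233). The probe lies at chr2:71694756-71694815 of mm9, plus strand.

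Itga4 pairs with Itgb1 or Itgb7 and binds fibronectin and the adhesion molecule VCAM1. Its level was -0.41 in MEF, 3.19 in ciNPC p5, 3.60 and 3.66 in ciNPC p13 and 4.10 in NPC. The order of the arrays was the same as for Itga6. The difference from MEF was 3.89 (SE 0.20, adjusted p = 3.3e-05), a 14.8-fold higher signal. A separate probe of the gene gave 3.88. That probe was not well above background in MEF (-5.78, under the array's floor of -4.29), so its difference is less certain in size. Against NPC the difference was -0.61 (SE 0.20, adjusted p = 0.188).

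Itgb8 pairs with Itgav and releases active TGF-beta from its latent complex, and it is expressed by neuroepithelial cells and glia. Its level was not well above background in MEF and was -2.28 in ciNPC p5, -1.32 and -1.25 in ciNPC p13 and -1.29 in NPC. Only the MEF array lacked a measurable signal, and the p5 array was the lowest of the others. The gene was at least 6.4-fold higher in ciNPC than in MEF (adjusted p = 0.00114), where the bound uses the lowest signal that counts as well above background on the MEF array. With normexp background correction the difference was 1.73 (adjusted p = 0.00416), under that bound. In NPC it was at least 8.01-fold higher than in MEF, without a test.

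Itga10, a collagen receptor chain known from cartilage, showed the smallest gain. Its level was -1.17 in MEF, -0.06 in ciNPC p5, -0.15 and -0.09 in ciNPC p13 and -0.02 in NPC. The ciNPC arrays spanned only 0.10 and lay next to NPC. The 2.1-fold difference from MEF (1.07, SE 0.21, adjusted p = 0.00542) was close to the 2-fold limit, and it was 0.85 with another background correction (normexp) and 0.99 when the probes of the gene were averaged, both under that limit.

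Of the 4 alpha chains that recognise the RGD motif of fibronectin and vitronectin, Itga5 and Itgav were lower in ciNPC than in MEF. The Itgav call holds for the probe used only, as its other probe gave 0.09 against MEF (SE 0.26, adjusted p = 0.831). Of the 4 tested beta chains that are neither leukocyte nor hemidesmosome chains, Itgb1, Itgb3 and Itgb5 were lower and Itgb8 was higher. Itga5, the alpha chain of the classical fibronectin receptor, was at 2.63 in MEF, 0.28 in ciNPC p5, 0.21 and 0.17 in ciNPC p13 and -0.26 in NPC. The ciNPC arrays stood near NPC and well apart from MEF. The difference from MEF was -2.41 (SE 0.17, adjusted p = 9.32e-05), and that from NPC was 0.48 (SE 0.17, adjusted p = 0.215).

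Itgb5, a vitronectin-binding partner of Itgav, was at 6.44 in MEF, 3.03 in ciNPC p5, 3.38 and 3.09 in ciNPC p13 and 2.34 in NPC. All ciNPC arrays lay between the other cell types and nearer to NPC. The level was 9.65-fold lower than in MEF (difference -3.27, SE 0.17, adjusted p = 3.15e-05). It exceeded NPC by 0.83 (SE 0.17, adjusted p = 0.0389), short of the 2-fold limit.

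Itgb3, which joins Itgav in the other major vitronectin receptor, separated all cell types. Its level was 3.71 in MEF, 0.37 in ciNPC p5, -0.17 and -0.26 in ciNPC p13 and -3.35 in NPC. The ciNPC arrays stood about midway between MEF and NPC and overlapped neither. They were 13.2-fold below MEF (difference -3.73, SE 0.29, adjusted p = 0.000125) and far above NPC (difference 3.33, SE 0.29, adjusted p = 0.0007; 2.39 with normexp). A separate probe, measurable only in MEF, gave -1.78 against MEF (SE 1.09, adjusted p = 0.268) and 2.56 against NPC (SE 1.09, adjusted p = 0.379). With the probes averaged, the difference from MEF was -2.75 (adjusted p = 0.00372).

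Itgb1, the beta chain shared by most matrix-binding integrins, was at 5.24 in MEF, 3.79 in ciNPC p5, 3.75 and 3.68 in ciNPC p13 and 3.34 in NPC. It stayed well above background in every cell type. The difference of ciNPC from MEF was -1.51 (SE 0.12, adjusted p = 0.00015), and a separate probe gave -1.18. Against NPC it was 0.40 (SE 0.12, adjusted p = 0.155). A further RGD-binding alpha chain, Itga8, which binds nephronectin in the kidney, did not pass against MEF (-0.95, SE 0.22, adjusted p = 0.0117, under 2-fold).

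The sequences just upstream of a pair of genes that were higher in ciNPC and a pair that were lower are shown so that their short motifs can be compared. They are the 250 bases before the annotated start, read 5′ to 3′ on the gene's strand, from RefSeq on GRCm38.p6, a later build than that of the arrays. Itga4 lies at chr2:79255176-79255425, plus strand, and Itgb8 at chr12:119238277-119238526, minus strand. Itga5 lies at chr15:103366792-103367041, minus strand, and Itgb5 at chr16:33829415-33829664, plus strand. Capitals mark matches, on either strand, to the GC box (GGGCGG), AP-1 (TGANTCA), TEAD (GGAATG) or SOX core (ACAANG) letters.
Itga4: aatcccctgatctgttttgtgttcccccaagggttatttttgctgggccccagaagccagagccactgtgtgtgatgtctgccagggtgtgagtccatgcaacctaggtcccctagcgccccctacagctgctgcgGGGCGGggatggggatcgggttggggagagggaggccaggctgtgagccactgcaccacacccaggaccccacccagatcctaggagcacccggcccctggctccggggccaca
Itgb8: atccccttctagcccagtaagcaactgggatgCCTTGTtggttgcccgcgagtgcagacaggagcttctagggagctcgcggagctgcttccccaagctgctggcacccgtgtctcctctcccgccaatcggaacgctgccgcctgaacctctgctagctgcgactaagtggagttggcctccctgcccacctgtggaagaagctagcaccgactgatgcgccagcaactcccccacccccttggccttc
Itga5: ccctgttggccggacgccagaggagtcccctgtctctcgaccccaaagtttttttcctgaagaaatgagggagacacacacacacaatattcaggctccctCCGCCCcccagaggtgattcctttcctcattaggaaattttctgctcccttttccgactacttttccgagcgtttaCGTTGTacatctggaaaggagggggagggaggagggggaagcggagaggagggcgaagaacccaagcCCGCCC
Itgb5: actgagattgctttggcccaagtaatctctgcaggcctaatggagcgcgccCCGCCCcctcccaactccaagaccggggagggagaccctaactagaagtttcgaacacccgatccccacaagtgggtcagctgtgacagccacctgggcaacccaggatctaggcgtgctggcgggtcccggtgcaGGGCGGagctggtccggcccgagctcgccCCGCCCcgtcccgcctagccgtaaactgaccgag

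Itga4 holds 1 GC box, Itgb8 1 SOX core match, Itga5 2 GC boxes and 1 SOX core match, and Itgb5 3 GC boxes, with no overlap between motifs. The same windows of Itga10, higher in ciNPC, and Itga11, lower, were also searched and are not printed. Itga10 holds 1 TEAD match and 0 GC boxes, and Itga11 holds no match to any of the motifs. Among all 32851 promoters of the same length, 32.7% hold a GC box, 6.75% an AP-1, 12.6% a TEAD and 36.3% a SOX core match. In the 27 promoters found for 24 of the members, these motifs occurred in 9, 1, 3 and 8. A match describes letters in this window only.

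Of the collagen-binding alpha chains, Itga11 and Itga1 were lower in ciNPC than in MEF, against the gain of Itga10. Itga11, a receptor for fibrillar collagen made by mesenchymal fibroblasts, was at 8.05 in MEF, 2.49 in ciNPC p5 and 1.95 and 1.81 in ciNPC p13, and was not well above background in NPC. No array of a cell type came near those of another. The level was 62.7-fold lower in ciNPC than in MEF (difference -5.97, SE 0.26, adjusted p = 1.86e-05), which left 1.6% of the MEF signal, the largest loss among the tested members. It was nevertheless at least 86.5-fold higher in ciNPC than in NPC (adjusted p = 2.49e-05). With normexp that difference was 4.85, under the bound. By the same kind of bound, which again depends on the background correction, NPC was at least 5420-fold below MEF, without a test.

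Itga1, which binds basement membrane collagen, was at 0.97 in MEF, -1.58 in ciNPC p5, -1.48 and -1.58 in ciNPC p13 and -1.84 in NPC. The difference from MEF was -2.52 (SE 0.26, adjusted p = 0.000377). Its probes did not give the same answer: the dimmer one gave -0.48 (SE 0.33, adjusted p = 0.321 with every probe tested as its own row), and the average of both gave -1.5. The last collagen-binding chain, Itga2, was measurable only on the array of ciNPC p13 replicate 2 (-2.27) and on that of NPC (-2.78), and passed neither test (adjusted p = 0.144 against MEF and 0.767 against NPC).

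Itga9, a relative of Itga4 that binds tenascin-C and osteopontin, went the other way from it. Its level was 0.71 in MEF, -0.95 in ciNPC p5, -1.01 and -0.95 in ciNPC p13 and -2.51 in NPC. The ciNPC arrays agreed within 0.06 and lay between the other cell types. They were lower than MEF by a difference of -1.69 (SE 0.24, adjusted p = 0.00159) and higher than NPC by 1.54 (SE 0.24, adjusted p = 0.0132). After quantile normalisation the difference from NPC was 1.36 and no longer passed (adjusted p = 0.0751).

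**Figure D2:**
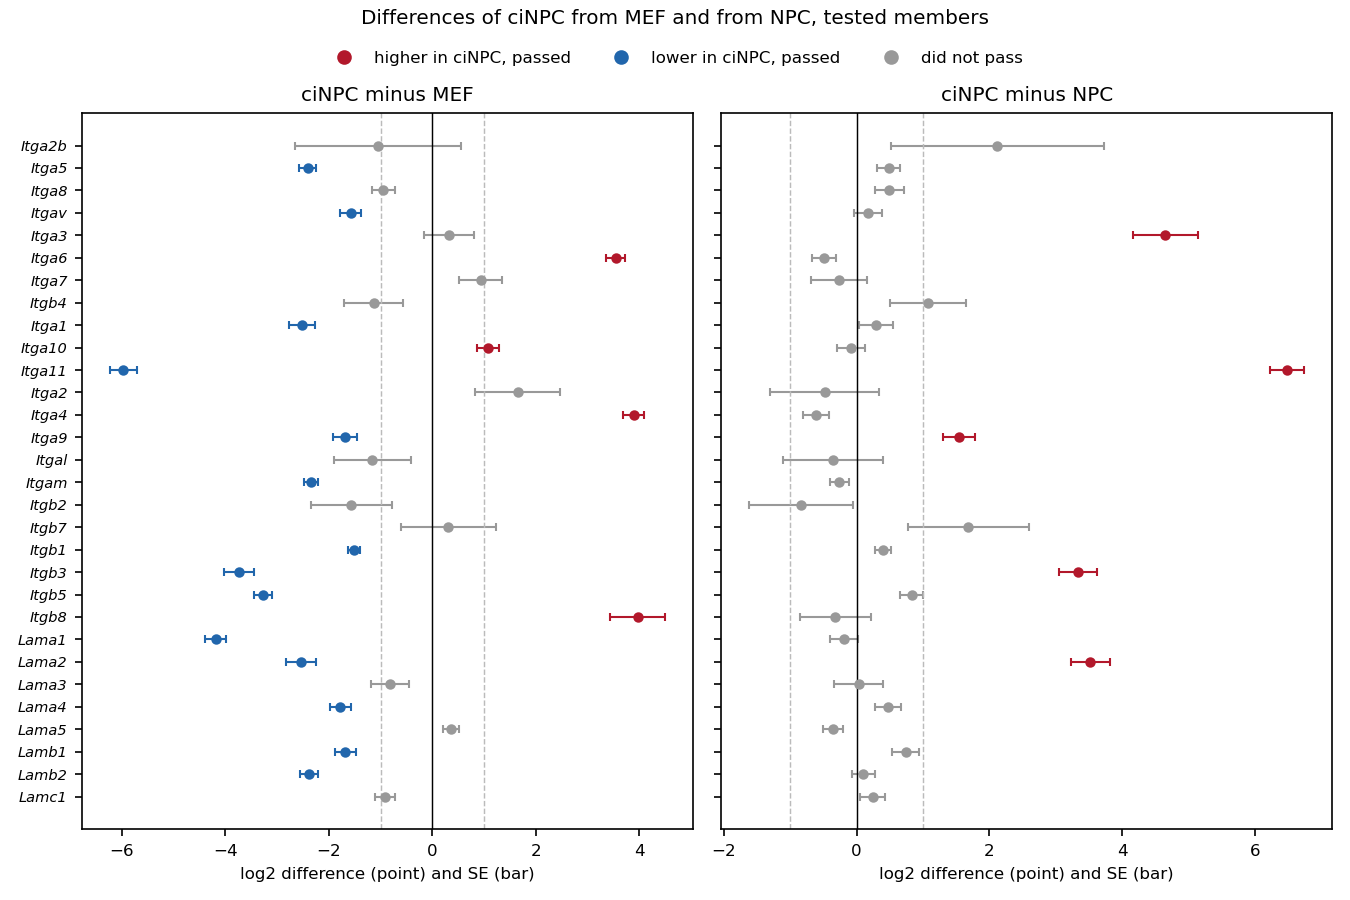
Log2 differences of ciNPC (3 arrays) from MEF (1 array, left) and from NPC (1 array, right) for 30 tested members, with bars of 1 SE from limma and dashed lines at 2-fold; both panels use the same ciNPC arrays. Colour marks members that passed: of those drawn, 14 were lower and 4 higher against MEF, and 5 higher against NPC.

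Of the 4 laminin-binding integrin chains, only Itga6 passed against MEF; whether the others differ from it was not tested. Itga3, a laminin receptor chain of epithelia and of migrating neurons, was at -2.20 in MEF, -2.05 in ciNPC p5 and -1.97 and -1.61 in ciNPC p13, and was not well above background in NPC. The ciNPC arrays lay beside MEF (difference 0.32, SE 0.49, adjusted p = 0.623). They were at least 5.54-fold higher than NPC (adjusted p = 0.00183), although with normexp the difference was 1.67 (adjusted p = 0.0159), under that bound. Itga7, the laminin receptor chain of muscle, was at 2.39 in MEF, 2.73 in ciNPC p5, 4.0 and 3.25 in ciNPC p13 and 3.60 in NPC. All ciNPC arrays lay above MEF, by 0.93 on average (SE 0.42, adjusted p = 0.115). Without p5 the difference was 1.23 and passed (adjusted p = 0.0021; 0.0021 to 0.272 over the alternatives). Against NPC it did not pass (adjusted p = 0.744). Itgb4, the hemidesmosome partner of Itga6, was at -1.66 in MEF, -3.14 to -2.14 in ciNPC and -3.87 in NPC, and passed neither test (adjusted p = 0.152 and 0.37).

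Laminin chains were lower or did not pass: of 9 tested, 6 were lower in ciNPC than in MEF. Among the alpha chains, Lama1, the chain of the early embryonic basement membrane, was at 4.02 in MEF, -0.34 in ciNPC p5, 0.07 and -0.24 in ciNPC p13 and 0.02 in NPC. The ciNPC and NPC arrays overlapped, far below MEF. The gene was 18.2-fold lower in ciNPC than in MEF (difference -4.19, SE 0.21, adjusted p = 3.15e-05), and differed from NPC by -0.19 (SE 0.21, adjusted p = 0.648).

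Lama2, the alpha chain around muscle and peripheral nerve, was at 1.93 in MEF, -0.32 in ciNPC p5, -0.84 and -0.64 in ciNPC p13 and -4.12 in NPC. The ciNPC arrays lay between the other cell types without overlap. They were lower than MEF (difference -2.53, SE 0.29, adjusted p = 0.000583) and 11.5-fold higher than NPC (difference 3.52, SE 0.29, adjusted p = 0.00056; 2.25 with normexp). Lama4, a chain of mesenchymal and vascular matrix, was at 3.11 in MEF, 1.19 to 1.58 in ciNPC and 0.85 in NPC (difference from MEF -1.78, SE 0.20, adjusted p = 0.000538).

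Lama5, the broadly expressed alpha chain of most mature basement membranes, was the laminin alpha chain with the smallest difference from MEF. Its level was 3.27 in MEF, 3.59 in ciNPC p5, 3.80 and 3.49 in ciNPC p13 and 3.99 in NPC. All 5 arrays lay within a narrow span. The difference of ciNPC was 0.36 from MEF (SE 0.15, adjusted p = 0.0978) and -0.36 from NPC (SE 0.15, adjusted p = 0.284). Lama3, the alpha chain of epithelial laminin, ranged from -2.46 to -1.51 over the 5 arrays (adjusted p = 0.117 against MEF).

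Both tested beta chains were lower in ciNPC than in MEF. Lamb1, the common beta chain, was at 5.93 in MEF, 4.53 in ciNPC p5, 4.18 and 4.03 in ciNPC p13 and 3.50 in NPC, with a difference from MEF of -1.68 (SE 0.20, adjusted p = 0.000692). Lamb2, the beta chain of neuromuscular and kidney basement membranes, was at 2.83 in MEF, 0.32 to 0.53 in ciNPC and 0.34 in NPC, with a difference of -2.39 (SE 0.17, adjusted p = 9.89e-05). Neither passed against NPC (adjusted p = 0.109 and 0.761).

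Lamc1, the gamma chain found in most laminin trimers, was at 4.62 in MEF, 3.88 in ciNPC p5, 3.78 and 3.44 in ciNPC p13 and 3.46 in NPC. All ciNPC arrays lay below MEF and close to NPC. The difference from MEF, -0.92, stayed under 2-fold (SE 0.19, adjusted p = 0.007), and that from NPC was 0.24 (adjusted p = 0.521).

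Against the brain-derived NPC, 6 members were higher in ciNPC and 0 lower, with 25 neither. Among them were Itga3, Itga9, Itga11, Itgb3 and Lama2, and all 3 ciNPC arrays exceeded the NPC array at least 2-fold for each of the 6. Among all 16209 genes, 4.8% were higher and 0.0864% lower by limma; at an unadjusted p under 0.05, 12 members and 2944 genes differed in either direction. The median difference of the members was 0.29, against -0.14 over all genes. This comparison shares the ciNPC arrays with that against MEF. Of the 4 genes higher in ciNPC than in MEF, the differences from NPC were -0.49 for Itga6, -0.61 for Itga4, -0.32 for Itgb8 and -0.08 for Itga10, and none passed.

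Markers of other cells moved beside these 6 genes. All 10 fibroblast markers were higher in ciNPC than in NPC, with the summed levels given above. Of 8 smooth muscle markers, 6 were higher, and the summed level was 1710 in MEF, 377 to 436 in ciNPC and 10.4 in NPC, where 2 of the 8 were well above background. Of 8 epithelial markers, 3 were higher (Krt8, Krt18 and Krt19), with a summed level of 4.05 in MEF, 3.4 to 4.52 in ciNPC and 0.257 in NPC. Of the leukocyte markers tested, 2 of 6 were higher (Aif1 and Tyrobp), and of the Schwann and neural crest markers tested, 2 of 6 (Mbp and Ngfr). The part of such cells in the higher integrin and laminin levels was not tested.

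Integrins known from leukocytes and platelets were mostly at the limit of detection. Of 8 leukocyte integrin genes on the arrays, 4 were tested, and only Itgam, a chain of the complement receptor of myeloid cells, passed (difference from MEF -2.35, SE 0.14, adjusted p = 4.73e-05). That value rests on 1 of 3 probes. The first 30 bases of each are shown because the probe used starts with a repeat, which is in capitals.
Itgam probe 1: tgttaaccagacaggtgccctctaccagtg
Itgam probe 2: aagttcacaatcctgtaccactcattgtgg
Itgam probe 3 (used): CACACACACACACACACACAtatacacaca

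The probe used, at chr7:135261755-135261814 of mm9, was at 5.78 in MEF, 3.32 in ciNPC p5, 3.55 and 3.43 in ciNPC p13 and 3.69 in NPC. Probe 1, at chr7:135212140-135212199, was at -3.37 in MEF, -3.39 in ciNPC p5 and -3.84 in NPC, and gave a difference from MEF of 0.43 (SE 0.74, adjusted p = 0.707). Probe 2, at chr7:135260275-135260334, was at -2.45 in MEF and -3.43 in NPC and gave -0.34 (SE 0.59, adjusted p = 0.714). Only the repeat probe showed a difference. On these arrays 22 probes hold a CA repeat of at least 20 bases, and all 22 were lower in ciNPC than in MEF, from -2.55 to -1.68, against 11.3% of all 35588 probes tested. Without probes holding such repeats, 14 members rather than 15 were lower. Of 10 leukocyte markers, 5 were well above background in MEF, 3 to 5 on the ciNPC arrays and 3 in NPC, with summed levels of 4.09, 2.04 to 2.99 and 2.16. Csf1r and Cd14 were measurable on all 5 arrays, and Csf1r was lower in ciNPC than in MEF (-1.04, adjusted p = 0.0185), while Ptprc, Spi1, Fcgr3 and Cd53 were not well above background on any. Their part in the Itgam signal was not tested.

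**Figure D3:**
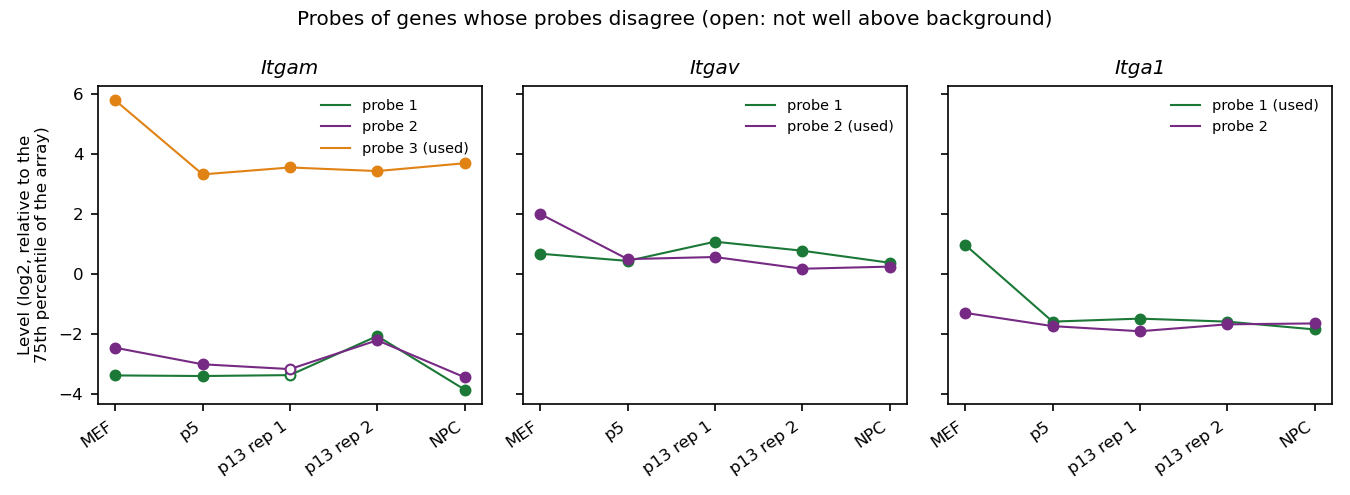
Level of each probe of Itgam, Itgav and Itga1 on the 5 arrays (log2, relative to the 75th percentile of the array); lines join the same probe, and open symbols are not well above background. In each gene the probe used drops from MEF to ciNPC, by 2.35, 1.58 and 2.52 on the log2 scale, while the other probes differ by at most 0.48 in size.

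Itgav, the alpha chain shared by the vitronectin receptors and Itgb8, also depended on the probe. The probe used was at 2.00 in MEF, 0.50 in ciNPC p5, 0.57 and 0.18 in ciNPC p13 and 0.25 in NPC (difference from MEF -1.58, SE 0.21, adjusted p = 0.00117). The other was at 0.68, 0.44, 1.08, 0.78 and 0.38 on the same arrays (difference 0.09, SE 0.26, adjusted p = 0.831). The probe used showed MEF above the rest and the other did not. The Itgav probes lie at chr2:83643905-83643964 and, used, chr2:83646133-83646192 of mm9, plus strand. Those of Itga1 span chr13:115756765-115758419 (used) and chr13:115821387-115825525, minus strand. Their first 30 bases are shown beside those of Itgam because they hold no such repeat.
Itgav probe 1: tttgcacaggcacttagaacaggtacacat
Itgav probe 2 (used): gggaatttagtggcaaagtatatattggta
Itga1 probe 1 (used): tcataaaagcacatttttccagcttaaatc
Itga1 probe 2: ttgggagagagagatcaatgccttgtgtga

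Itgal and Itgb2, which form the leukocyte receptor for ICAM adhesion molecules, Itgb7, a lymphocyte chain, and Itga2b, the platelet fibrinogen receptor chain, did not pass against MEF (adjusted p from 0.144 to 0.806). Itga2b was measurable in MEF (-3.38) and in ciNPC p13 replicate 2 (-2.12) only. Itgb2 was at -1.78 in MEF, -2.38 in ciNPC p13 replicate 2 and -2.51 in NPC, and was dim on the other ciNPC arrays. The p13 replicate 2 array, with the low spike-in slope, was the brightest ciNPC array for Itga2, Itga2b, Itgb2 and Itgb7; the part of that array was not tested. Itgb2 passed as lower than in MEF without that array (-2.06, adjusted p = 0.0118), and with it after quantile normalisation (-1.77, adjusted p = 0.0495), in the deposited table (-1.77, adjusted p = 0.0493) and with 4 groups (-1.57, adjusted p = 0.0386). Over all alternatives its adjusted p ran from 0.0118 to 0.234, and Itgb7 passed as higher than in NPC without p5 (2.32, adjusted p = 0.0482).

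Between the passages, no member passed in limma: 0 of 31 were higher and 0 lower in ciNPC p13 than in p5, where 0.42% of all genes were higher and 0.21% lower. At an unadjusted p under 0.05, 10 members and 3630 genes differed. Only the spread between the 2 p13 arrays entered this test. Without the 2-fold limit, 5 members had an adjusted p under 0.05, against 5.93% of all genes.

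Those 5 were Itga4, Itga6, Itga7, Itga11 and Lamb1. The p13 minus p5 difference was 0.44 for Itga4 (adjusted p = 0.0298), 0.38 for Itga6 (0.0427), 0.89 for Itga7 (0.041), -0.61 for Itga11 (0.0155) and -0.43 for Lamb1 (0.0318). For each, the mean of the p13 arrays lay nearer to the NPC array than p5 did. With quantile normalisation, the deposited value table or no intensity trend, 0 of them had an adjusted p under 0.05. With normexp, Itga4 and Itga6 no longer did, while Itgb3 and Lama4 did. With only genes well above background on all 5 arrays, Itga4 alone did among the 21 members that entered.

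NPC and MEF, with 1 array each, could be described without a test. At 4-fold or more, Itga4, Itga6 and Itgb8 were above MEF in NPC and 15 members were below it, while 8.02% of all genes were above and 10.1% below. Among the 15 were Itga1, Itga3, Itga5, Itga9, Itga11, Itgam, Itgb3, Itgb4, Itgb5, Lama1, Lama2, Lama4, Lamb1 and Lamb2. Here too the probes of Itgam and Itga1 disagreed. The NPC minus MEF difference was -0.47 and -0.98 on the other Itgam probes and -0.35 on the other Itga1 probe. The other probes of Itgb3 (-4.33) and Lama2 (-6.07), both dim in NPC, went the same way as the probes used. Itgb3 was 133-fold and Lama2 66.2-fold below MEF in NPC, against 13.2-fold and 5.78-fold in ciNPC. The counts at 4-fold depended on the processing. With normexp, 2 members were above MEF in NPC and 13 below. With quantile normalisation or the deposited value table, 3 were above and 12 below. With only genes well above background on all 5 arrays, where 21 members enter, 2 were above and 11 below.

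The proteins that integrins and laminins work with were followed in 4 further lists. Of 40 tested integrin adaptors, the cytoplasmic proteins that tie integrins to actin, 22 were lower and 4 higher in ciNPC than in MEF, with a median of -1.11. Over all genes, 15.3% were lower and 15.3% higher than in MEF and 4.8% higher than in NPC, shares that apply to each of the 4 lists. Lowest were Tns1, a tensin of fibrillar adhesions (-2.74, SE 0.14, adjusted p = 3.15e-05), and Dab2, an endocytic adaptor (-2.70, SE 0.34, adjusted p = 0.000916). Highest were the Src-family kinase Fyn (1.62, SE 0.16, adjusted p = 0.000331) and Parvb, a parvin (1.45, SE 0.36, adjusted p = 0.0161). Against NPC, 10 adaptors were higher with a median of 0.44. By measured difference they were led by Cav1, the caveolar coat protein (at least 26.1-fold, adjusted p = 3.83e-05), and Actn1, an actin crosslinker (4.74, SE 0.26, adjusted p = 8.17e-05). Cav1 was dim in NPC, and the 26.7-fold difference of Actn1, which was measured in NPC, lay above the bound for Cav1.

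Among 29 tested integrin ligands, 17 were lower in ciNPC than in MEF and 14 higher than in NPC, with medians of -1.47 and 1.61. The matrix proteins Thbs2 (-5.25, SE 0.27, adjusted p = 3.24e-05) and Postn (-5.08, SE 0.28, adjusted p = 4.17e-05) were lowest against MEF. Against NPC, Postn was at least 55-fold higher (adjusted p = 1.46e-05) and Thbs1 higher by 7.55 (SE 0.26, adjusted p = 1.22e-05). Postn led by its measured value, dim in NPC; Ccn2, added after its value was seen, was measured in NPC and higher by 7.52 (SE 0.36, adjusted p = 4.52e-05), above the bound for Postn. Postn is also a fibroblast marker of the list above.

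Of 19 tested partners of laminin in the basement membrane, 8 were lower and 1 higher in ciNPC than in MEF, with a median of -0.73. The gain was Agrn, a heparan sulfate proteoglycan of synapses and vessels (1.40, SE 0.11, adjusted p = 0.000161). Hspg2, the proteoglycan perlecan (-3.77, SE 0.21, adjusted p = 3.84e-05), and the collagen chain Col4a2 (-3.41, SE 0.21, adjusted p = 5.35e-05) were lowest. Against NPC, 5 were higher with a median of 0.46, led by Smoc2 (6.40, SE 0.29, adjusted p = 3.83e-05) and Nid1, which links laminin to collagen (5.06, SE 0.24, adjusted p = 4.13e-05).

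The 17 other laminin receptors and tetraspanins, membrane proteins that cluster with integrins, were all tested. Of these, 5 were lower in ciNPC than in MEF, with a median of -0.81, and 3 were higher than in NPC, with a median of 0.02. Cd82, a tetraspanin (-3.05, SE 0.22, adjusted p = 9.68e-05), and Sdc1, a syndecan (-2.03, SE 0.21, adjusted p = 0.00042), were lowest against MEF. Sgcd, a sarcoglycan of the dystroglycan complex (at least 3.16-fold, adjusted p = 0.00875), and Tspan4 (1.37, SE 0.13, adjusted p = 0.00113) were highest against NPC.

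**Figure D4:**
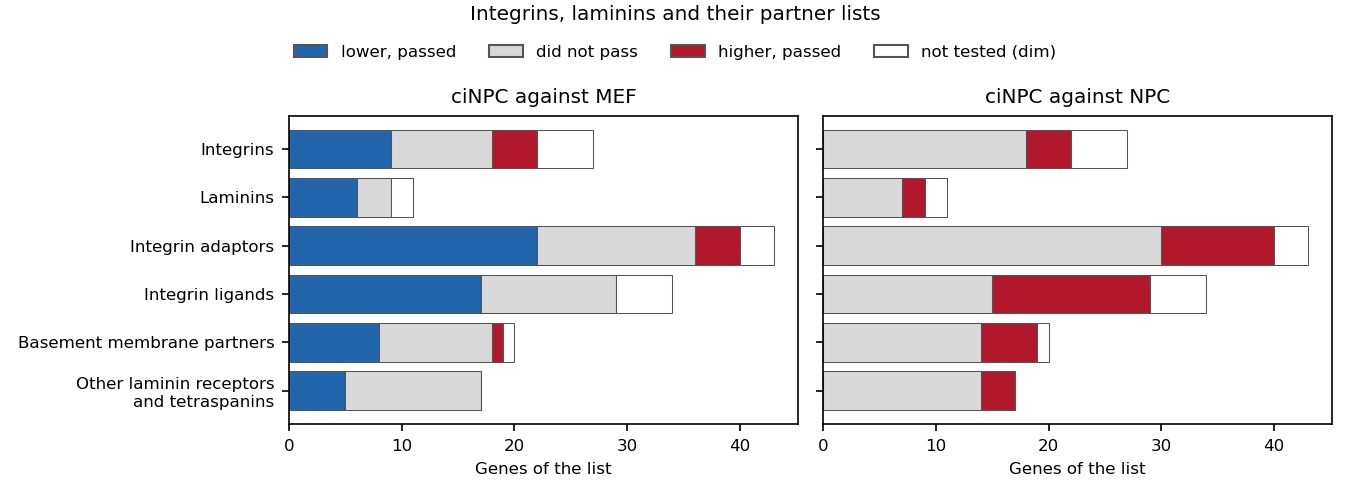
Number of genes of each list that were lower, higher or neither in ciNPC against MEF (left) and against NPC (right), with genes too dim to be tested in white; the panels share the ciNPC arrays. Integrin ligands show 17 lower against MEF and 14 higher against NPC, and laminins 6 lower and 2 higher.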

How the data were processed

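Total RNA was labelled with Cy3 and hybridised to 5 Agilent arrays. Per the file headers, the authors extracted spots with Feature Extraction 10.7.1.1, and probe positions are on mm9; the deposited processed signal is an intensity, background-subtracted and detrended, with no scaling from array to array. A deposited table of log2 values had a median of 5.64 on every array; its normalisation is not given in the sources used here, and it served as an alternative. Here the processed intensity was put on a log2 scale, relative to the array's 75th percentile, after outlier spots were removed. Symbols were updated through accessions where the RefSeq gene table (GRCm38.p6) held them. A gene was represented by its probe with the highest mean and kept if that probe was well above background throughout at least 1 group.

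ciNPC against MEF and NPC came from 1 limma 3.58.1 fit (R 4.3.3, intensity trend, 3 groups, 2 residual degrees of freedom), and p13 against p5 from a 4-group fit with 1. P-values were adjusted by Benjamini-Hochberg over all 16209 genes; the fit was tested on simulated data. Folds against a dim group are bounds at the array's floor, the lowest signal well above background, and apply to the main background correction only. The number of arrays limits the precision. Members and lists were chosen with earlier results of these data known. Tested members are named, except 1 that is not reported here, and from each partner list the 2 highest and 2 lowest that passed, ranked by measured difference.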

Additional observations from a re-analysis of the deposited data

How the results depend on the processing

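Background correction, scaling, the filter on dim probes, the choice of probe, the variance model, the groups and each left-out ciNPC array were varied. Of the 4 members higher and 15 lower against MEF, 3 and 13 kept their call in every setting run; Itga10, Itgam and Itgav did not. With the probes of a gene averaged, the differences of Itgam and Itgav from MEF were both -0.75, under 2-fold. Of the 6 higher than NPC, 5 kept theirs and Itga9 did not. In these counts a gene kept the probe used or had its probes averaged, and no other probe took its place. The other probe of Itga1 gave -0.48 against MEF (adjusted p = 0.321). That of Itgb3 gave -1.78 against MEF (adjusted p = 0.268) and 2.56 against NPC (adjusted p = 0.379). None of these passed. With only genes well above background on all 5 arrays, 21 members were tested and 3 were higher than NPC, since fewer genes enter by construction. Leaving out 1 ciNPC array gave 4 to 5 higher and 15 to 17 lower than MEF, and 6 to 7 higher and 0 lower than NPC. Itga7 (1.23), Itga8 (-1.05) and Lamc1 (-1.01) passed against MEF without p5. Scaling by detected probes moved the median of all genes from -0.09 to 0.07 against MEF. Differences that passed no test changed sign in some settings: against MEF, Itga2b (0.09 with normexp), Itgb7 (-0.17 without p13 replicate 2) and Lama3 (0.3 with averaged probes), and against NPC, Itga10 (0.05 scaled by detected probes), Itga2 (0.0 with normexp), Itga7 (0.02) and Itgb8 (0.01), both without p5. Leaving out 1 ciNPC array gave up to 0.94 for Itgb7 and down to -0.61 for Itga7 and -0.51 for Itgb8. Against NPC, Lama3 (0.03, and -0.26 with quantile normalisation) changed sign in several settings. Itgal (-0.36, and 0.41 with averaged probes) and Itgam (-0.26, and 0.43 with averaged probes) also changed sign there. Over all tested members, 3, 11 and 15 uncalled values did so against MEF, against NPC and between passages. The alternative without repeat probes was chosen after seeing the data. Slide as a block could not be fitted and was not run, because slide and ciNPC coincide. No paired analysis was possible because MEF, ciNPC p5 and NPC have 1 array each. Dim members are limited by signal over background.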

Other observations

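Probes with long TG repeats, the complement of the CA repeat in the Itgam probe, moved the other way. Of 49 probes with a TG repeat of at least 20 bases, 38 were higher and 0 lower in ciNPC than in MEF, with a median difference of 1.14 and a range of 0.68 to 1.38. No integrin or laminin probe holds such a TG repeat. The 22 probes with a CA repeat had a median difference of -2.14.

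Integrin genes detected well above background numbered 20 of 27 in MEF, 17 in ciNPC p5, 18 and 21 in ciNPC p13 and 18 in NPC. Laminin genes detected numbered 9 of 11 on every array except that of NPC, with 8. The summed level of the Schwann and neural crest markers was 2.89 in MEF, 74.8 to 89.8 in ciNPC and 151 in NPC, and 1 of 6 tested was higher in ciNPC than in MEF, Gap43. Of 8 endothelial markers, Kdr was measurable on all 5 arrays and lower in ciNPC than in MEF (-1.58, adjusted p = 0.00237), Pecam1 and Emcn were measurable on 4, and Cdh5, Tek, Tie1 and Esam on none. The summed level was 16.9 in MEF, 4.49 to 7.35 in ciNPC and 6.83 in NPC. Of the megakaryocyte markers, Pf4 was higher and Gp1bb lower in ciNPC than in MEF, while Gp9 and Gp1ba were not well above background on any array. The summed level was 3.16 in MEF, 1.85 to 2.32 in ciNPC and 1.83 in NPC.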
